A study of Mus musculus with 8 samples.

Results

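The oxidative phosphorylation genes were followed in melanocyte stem cells of mouse dorsal skin. They were chosen by symbol: protein-coding genes starting with Nduf, Uqcr, Cox4, Cox5, Cox6, Cox7, Cox8 or Atp5, the genes Sdha, Sdhb, Sdhc, Sdhd and Cyc1, and the 13 protein-coding genes of mitochondrial DNA. Of the 54418 genes in the deposited count table, 108 matched, and 104 of them reached 10 counts summed over the 8 libraries. These 104 members comprise 91 nuclear genes and 13 mitochondrially encoded ones. The 4 genes under the minimum, Cox6a2, Cox8b, Cox8c and a second identifier of Atp5o, had 0 counts in every library.

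The study asked what loss of Bmi1, a subunit of the Polycomb repressive complex PRC1, does to these cells. Bulk RNA was sequenced from 4 Bmi1-deleted and 4 control mice of postnatal day 21, on a mixed C57Bl-6;129Sv background. The Bmi1-deleted group carried Bmi1fl/fl and Tyrosinase-Cre, a Cre under the promoter of the melanocyte gene tyrosinase, and the control group carried Bmi1fl/fl without Cre. Both groups also carried Dct-rtTA and TRE-H2B-GFP and received doxycycline feed, so that cells using the Dct promoter were marked by GFP. Live GFP-positive cells were sorted, so a library holds whatever the gate let through, and fewer cells of a type cannot be told apart from less RNA per cell. The labels do not say how the animals of the groups were related, and the p-values below measure only the spread between these samples.

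The libraries held 8882656 to 10368174 counts, and counts are given below as counts per 1000000 counts (CPM) with TMM library scaling. Bmi1 itself stood at 69.2, 70.8, 69.6 and 68.8 CPM in the Bmi1-deleted libraries, against 84.6, 76.5, 75.4 and 97.2 CPM in the control libraries. These groups did not overlap, but the log2 change of -0.26 (SE 0.12) had an adjusted p of 0.607 in edgeR's quasi-likelihood test. Transcripts lacking the deleted part may still be counted, which was not tested. All 12 markers of melanocytes were detected, with a summed 4968 to 10529 CPM in Bmi1-deleted and 8806 to 14838 CPM in control libraries. The 15 fibroblast markers summed to 9258 to 20051 CPM in Bmi1-deleted and 5893 to 9661 CPM in control libraries, and the 12 Schwann cell markers to 5611 to 6974 CPM in Bmi1-deleted and 3405 to 5492 CPM in control libraries. The 12 keratinocyte markers summed to 1830 to 3785 CPM in Bmi1-deleted and 2281 to 2745 CPM in control libraries. The part of these other cell types in the Bmi1 values and in the results below was not tested.

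Oxidative phosphorylation makes ATP at the inner mitochondrial membrane. Complexes I and II pass electrons from NADH and succinate to coenzyme Q, complex III passes them through cytochrome c to complex IV, and complex IV reduces oxygen. Complexes I, III and IV pump protons, and complex V, the ATP synthase, uses their return flow. Complex II is encoded wholly in the nucleus, while the other complexes combine nuclear subunits with subunits encoded in mitochondrial DNA, which is transcribed by the dedicated polymerase Polrmt. In melanocytes and melanoma cells the coactivator Ppargc1a, a regulator of mitochondrial gene expression, is known as a target of the lineage factor Mitf.

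The mitochondrially encoded members have near-identical stretches in the nuclear genome. A run of unprocessed pseudogenes on the minus strand of chromosome 1 (GENCODE M21, mm10) aligned to 7 of the 13 genes at 99% identity or more. The start of mt-Co2, which encodes a catalytic subunit of complex IV, is shown beside its copy because every one of the 681 aligned bases is the same, so no read within them can be assigned to one locus by its sequence. mt-Co2 lies at chrM:7013-7696 on the plus strand, and its copy Gm28661 at chr1:24614885-24615565.
mt-Co2: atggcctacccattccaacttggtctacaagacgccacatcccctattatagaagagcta
Gm28661: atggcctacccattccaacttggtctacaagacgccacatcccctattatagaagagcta
The complex I gene mt-Nd3 (chrM:9459-9806, plus strand) and its copy Gm28438 (chr1:24612775-24613119) are shown because they differ at a single base over 345, T3C, counted from 1 at the first base of the mitochondrial gene and printed in capitals.
mt-Nd3: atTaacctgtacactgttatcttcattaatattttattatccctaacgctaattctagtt
Gm28438: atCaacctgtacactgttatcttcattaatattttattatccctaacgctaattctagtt

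The deposited table placed most counts of 4 mitochondrial genes on these copies. The mt-Co2 row had 0, 0, 0 and 258 counts in the Bmi1-deleted libraries and 0 counts in each control library. The row of its copy Gm28661 had 3571, 4278, 3704 and 2856 counts in the Bmi1-deleted libraries, against 3805, 5750, 4101 and 4502 counts in the control libraries. A count of 0 in the mt-Co2 row is therefore not an absence of its sequence from these cells.

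The mitochondrial row held 0.786% of the pooled counts of mt-Co2 and its copy, 11.5% for mt-Atp6 and Gm10925, 20.7% for mt-Co3 and Gm28437, and 21.9% for mt-Nd4l and Gm10222. The division varied from library to library within each group. For mt-Nd4l, a small membrane subunit of complex I, the mitochondrial row held 372, 217, 25 and 929 counts in the Bmi1-deleted libraries and 0, 177, 158 and 128 counts in the control libraries. Its copy held 810, 989, 1082 and 0 counts in the Bmi1-deleted libraries and 998, 1193, 822 and 1246 counts in the control libraries. The highest mitochondrial row and the only empty copy row belonged to the same library, Bmi1-deleted 4.

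**Figure D1:**
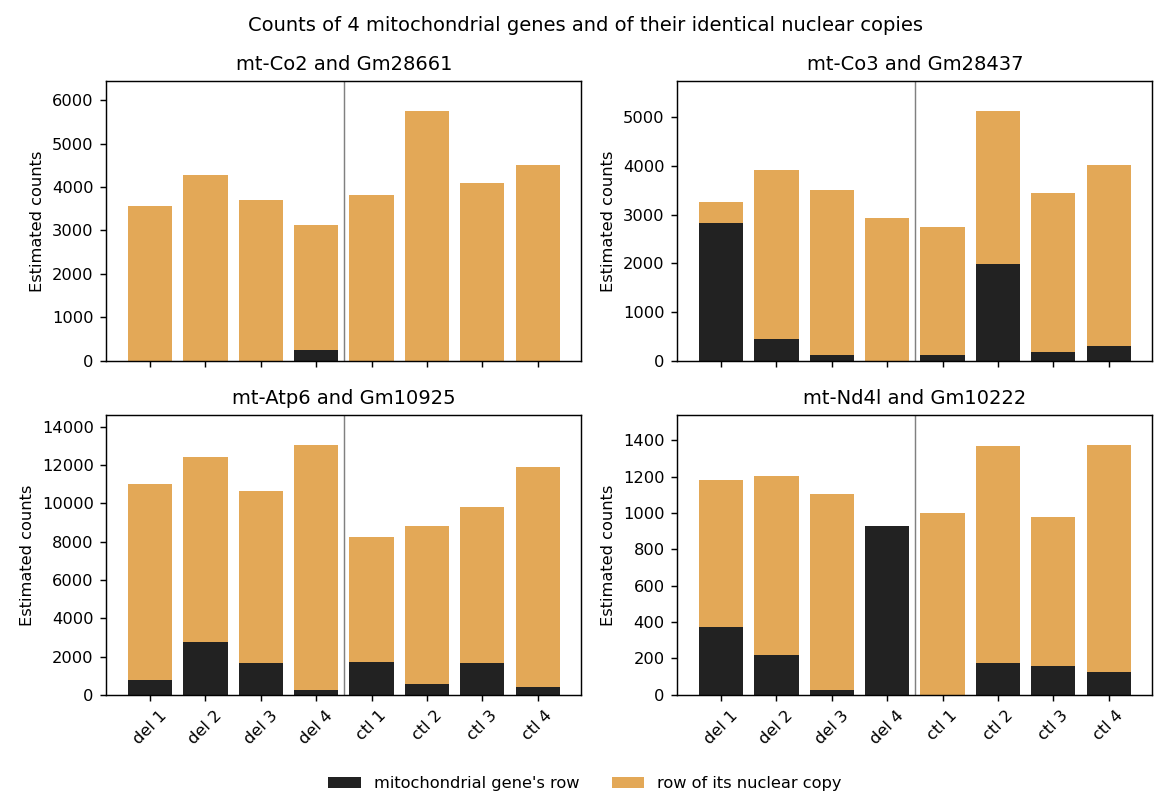
Stacked bars give the deposited estimated counts of 4 mitochondrial genes (black) and of their nuclear copies on chromosome 1 (orange) in the 4 Bmi1-deleted (del) and 4 control (ctl) libraries. The division between black and orange shifts from library to library, for mt-Nd4l up to 929 counts in the mitochondrial row and 0 in the copy for Bmi1-deleted 4.

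The log2 change moved with the division for mt-Nd4l and mt-Co3. On its own row mt-Nd4l had a log2 change of 1.78 (SE 1.30), and with the copy's counts added -0.08 (SE 0.15). For mt-Co3 the log2 change was 0.45 (SE 1.68) on its own row and -0.16 (SE 0.16) with the copy added. For mt-Atp6 the log2 change was 0.30 (SE 0.79) on its own row and 0.29 (SE 0.15) with the copy added, so only the error was smaller. The mt-Co2 row did not pass the filter on low counts alone, and with its copy it had a log2 change of -0.29 (SE 0.14; adjusted p = 0.600, edgeR). The pseudogenes hold no reads that could be told from those of the 5 genes they match base for base, so transcription of the nuclear copies was not tested. The next paragraphs on mitochondrially encoded genes use the sums of gene and copy, an alternative chosen after seeing the data. Counts over all 99 tested members, and medians of tested mitochondrial rows, use the rows as deposited.

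None of the 13 mitochondrially encoded genes differed between the groups past an adjusted p of 0.05 in edgeR's quasi-likelihood test (17 of 16008 genes did, 0.106%). Their log2 changes, Bmi1-deleted over control, ran from -0.36 for mt-Atp8 to 0.29 for mt-Atp6, with a median of -0.16 against 0.01 for all genes. The 95% interval of each of the 13 stayed within a 2-fold change in either direction. No gene of the 13 had groups that did not overlap (on the deposited rows, 5.18% of all genes did not overlap).

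Of the 7 complex I genes, mt-Nd5 had 1175, 1202, 1055 and 978 CPM in the Bmi1-deleted libraries, against 981, 1525, 1029 and 1409 CPM in the control libraries. mt-Nd1 averaged 936 ± 63.5 CPM in Bmi1-deleted and 1024 ± 231 CPM in control libraries (SD, n = 4 each). mt-Nd4 averaged 765 ± 95.7 CPM in Bmi1-deleted and 899 ± 226 CPM in control libraries. For these 3 membrane subunits the Bmi1-deleted values lay inside or just below the range of the control values, whose SD was the larger one each time. mt-Nd2, mt-Nd3, mt-Nd4l and mt-Nd6 had log2 changes of -0.26, -0.29, -0.08 and -0.08.

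The single complex III gene, mt-Cytb, encodes cytochrome b. It had 1580, 1675, 1537 and 1455 CPM in the Bmi1-deleted libraries, against 1517, 2390, 1455 and 1885 CPM in the control libraries, a log2 change of -0.21 (SE 0.16). Of the catalytic core of complex IV, mt-Co1 averaged 2475 ± 160 CPM in Bmi1-deleted and 2716 ± 362 CPM in control libraries. mt-Co2 averaged 396 ± 31.3 CPM in Bmi1-deleted and 486 ± 83.1 CPM in control libraries, and mt-Co3 367 ± 28.2 CPM in Bmi1-deleted and 411 ± 103 CPM in control libraries. The means of these 4 genes were lower in the Bmi1-deleted libraries, and none of the differences passed the test.

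The complex V genes went in different directions from each other. mt-Atp8 had 75.1, 67.4, 55.4 and 57.7 CPM in the Bmi1-deleted libraries, against 63.7, 115, 67.5 and 83.6 CPM in the control libraries, with a log2 change of -0.36 (SE 0.19; adjusted p = 0.653). mt-Atp6, with the counts of Gm10925, had 1213, 1236, 1182 and 1479 CPM in the Bmi1-deleted libraries, against 878, 906, 1048 and 1345 CPM in the control libraries, with a log2 change of 0.29 (SE 0.15; adjusted p = 0.657). For each of the 4 replicate numbers it was higher in the Bmi1-deleted than in the control library, though the data do not show that the numbers pair the libraries. With the replicate block its edgeR p was 0.00648 and its adjusted p 0.139, the lowest adjusted p of the members in that fit. mt-Atp8 and mt-Atp6 overlap on 1 transcript, so a part of their reads cannot be assigned to one of them.

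The size of the differences depended on which library was left out. Control 2 was the highest of the 8 libraries for 10 of the 13 genes, control 4 for mt-Nd4l and mt-Nd6, and Bmi1-deleted 4 for mt-Atp6 alone. Without control 2, the log2 changes of mt-Nd1, mt-Nd2, mt-Nd4, mt-Nd5 and mt-Cytb were -0.03, -0.07, -0.06, -0.05 and -0.05, that of mt-Co2 was -0.19 and that of mt-Atp6 was 0.23. Control 2 was picked for being the highest, so smaller negative changes without it follow from that choice. On the deposited rows, leaving out each library in turn gave a median of -0.25 to -0.05 for the mitochondrial genes. mt-Nd2 then ran from -0.36 to -0.07. The 13 genes of a library share its depth and its content of mitochondrial RNA, so their signs are not independent of each other.

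**Figure D2:**
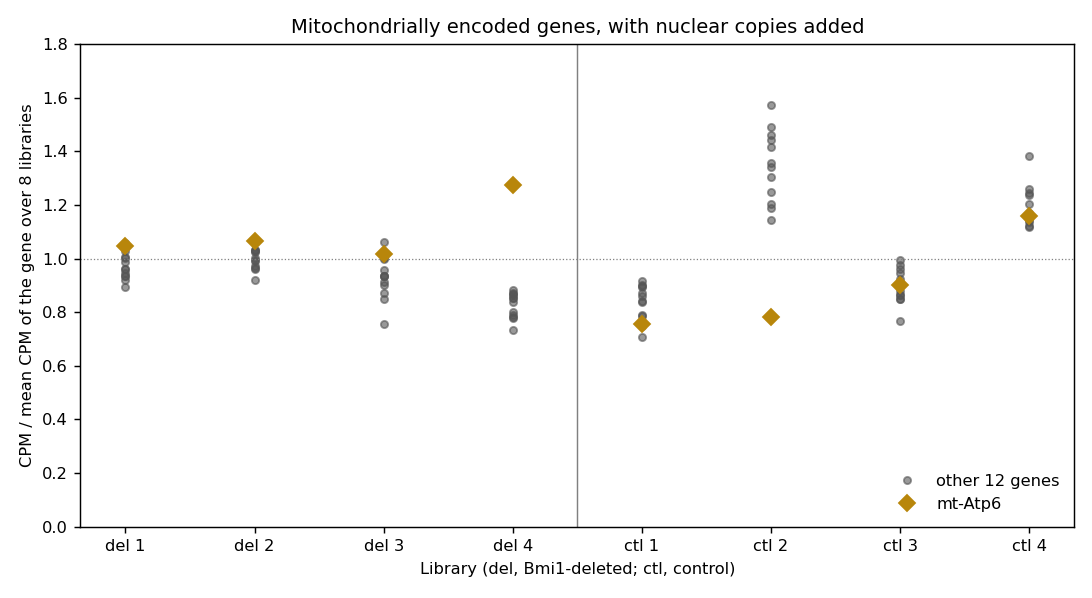
Each point is the CPM of one mitochondrially encoded gene, counts of nuclear copies included, over the gene's mean in the 8 libraries, with Bmi1-deleted libraries (del) left of control libraries (ctl). Control 2 is the highest library for 10 of the 13 genes, while mt-Atp6 (gold diamonds) is highest in Bmi1-deleted 4.

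The mitochondrial messages made up 0.976%, 1.01%, 0.943% and 0.886% of all counts in the Bmi1-deleted libraries, against 0.876%, 1.31%, 0.931% and 1.17% in the control libraries. The mitochondrial ribosomal RNAs, read from the same polycistronic transcripts and partly removed by the library kit, made up 5.24 ± 0.40% of counts in Bmi1-deleted and 5.90 ± 1.13% in control libraries. The ratio of mitochondrial messages to mitochondrial ribosomal RNA was 0.182 in each group. Control 2 also had the highest share of mitochondrial ribosomal RNA, 7.12%, and the lowest share of cytosolic ribosomal RNA, 2.62% against 3.36% to 5.46% in the other control libraries. The part of these shares in the mitochondrial values was not tested.

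Of the 91 nuclear members, 87 passed the filter on low counts, and none was called in the comparison of Bmi1-deleted with control libraries at an adjusted p under 0.05. With the 12 tested rows of mitochondrial genes, 0 of 99 members were called, against 15 of 16011 genes, 0.0937%. The lowest adjusted p among the members was 0.490, for Ndufs8. At an unadjusted p under 0.05, 3 of 99 members passed (8.27% of all genes did): Ndufs8, Ndufb2 and Uqcrq, all lower in Bmi1-deleted libraries. DESeq2 also called 0 members, with 3 at an unadjusted p under 0.05, and limma on log2(TPM + 1) called 0, with 7 of 96. With the replicate number as a block, edgeR called 386 of 16011 genes, 2.41%, and 0 of the 99 members, with 4 at an unadjusted p under 0.05. For DESeq2, limma and the block fit, the share of all genes at that unadjusted p was not counted.

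The groups did not overlap for 3 members, Ndufs8, Uqcr10 and Cox4i1, each lower in the Bmi1-deleted libraries (5.18% of all genes did not overlap). The nuclear members divided into 39 with a positive and 48 with a negative log2 change, with a median of -0.05 against 0.01 for all genes. That median had the other sign without control 4, 0.05, and in replicates 1 and 2 alone, 0.08, and was -0.22 in replicates 3 and 4 alone. Summed, the nuclear members gave 2824, 2852, 2711 and 2579 CPM in the Bmi1-deleted libraries, against 2617, 2833, 2576 and 3391 CPM in the control libraries. The Bmi1-deleted sums all lay between the lowest and the highest control sum, and control 4 was the highest library for 33 of the 91 nuclear members.

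The precision depended on the level. On the deposited rows, the 95% interval stayed within a 2-fold change for 74 of the 99 tested members, and within a 1.5-fold change for 34. The 14 nuclear members of at least 50 CPM had a median SE of 0.14 on the log2 scale, and all 14 intervals stayed within 2-fold. The 53 at 10 to 50 CPM had a median SE of 0.23, with 46 within 2-fold, and the 20 under 10 CPM one of 0.45, with 5. For the rest of these low members the interval reached beyond a 2-fold change.

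**Figure D3:**
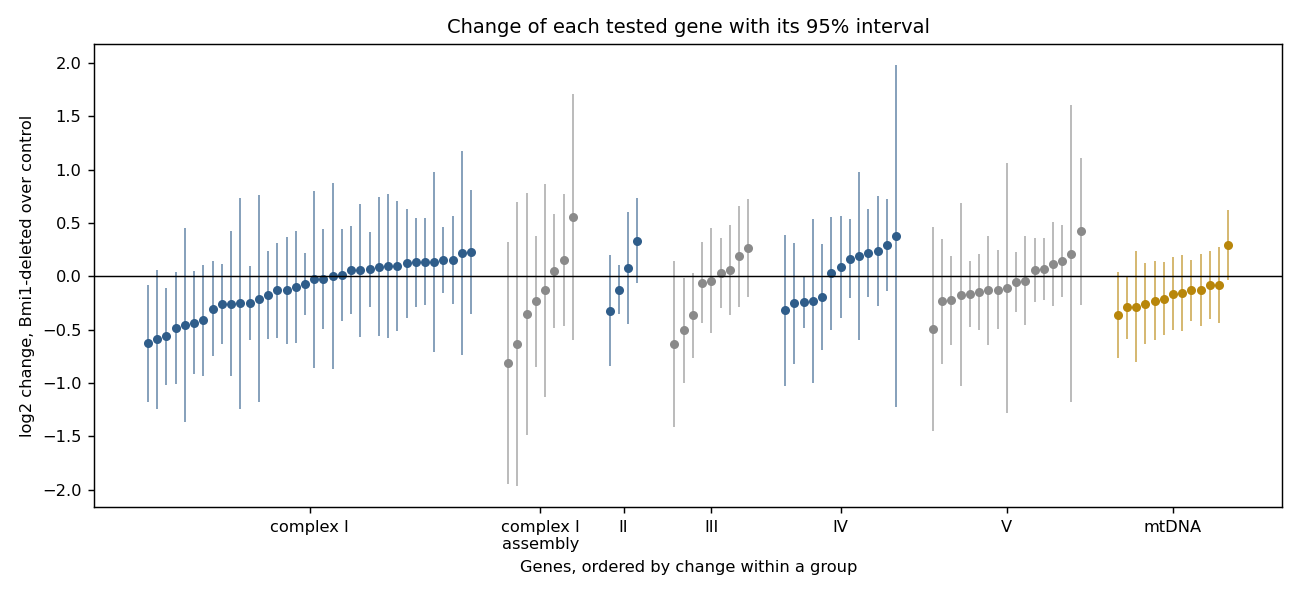
Points are log2 changes of CPM, Bmi1-deleted over control, and lines their 95% intervals, for the 87 tested nuclear members by complex (blue and grey) and the 13 mitochondrial genes with nuclear copies added (gold). Changes scatter on both sides of 0 in each nuclear group, and 12 of the 13 mitochondrial genes lie below 0, with no member past an adjusted p of 0.05.

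All 36 nuclear subunits of complex I were tested, with a median log2 change of -0.05, and their sum averaged 777 ± 37.6 CPM in Bmi1-deleted and 813 ± 87.6 CPM in control libraries. Ndufs8, a core subunit that holds iron-sulfur clusters, had 11.9, 12.4, 14.7 and 10.2 CPM in the Bmi1-deleted libraries, against 18.8, 18.7, 16.7 and 18.6 CPM in the control libraries. Every Bmi1-deleted value lay below every control value, and the log2 change was -0.56 (SE 0.21; adjusted p = 0.490). The accessory subunit gene Ndufb2 had 16.1, 11.3, 7.45 and 13.4 CPM in the Bmi1-deleted libraries, against 18.2, 21.0, 15.9 and 19.5 CPM in the control libraries. Its groups overlapped at one library each, with a log2 change of -0.63 (SE 0.26; adjusted p = 0.542, and 0.232 with the replicate block). A transcript of Ndufb2 shares 146 bases with Braf, which held 4402 counts against 1141 for Ndufb2. The libraries were stranded, and the strand of that shared stretch was not recorded. Whether the counts of Ndufb2 hold some of those of Braf was not tested.

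The 7 nuclear core subunits of complex I, which carry its electron path, together had a median log2 change of -0.07, with 3 positive and 4 negative. Of the 7, Ndufs8 alone had groups that did not overlap (5.18% of all genes did not overlap). Their sum averaged 281 ± 15.3 CPM in Bmi1-deleted and 285 ± 26.5 CPM in control libraries. Ndufb4 shares 390 identical bases with the pseudogene Ndufb4c, which held 926 counts against its 619, and its value is uncertain for that reason.

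The 8 Ndufaf genes encode factors that help to assemble complex I and are not part of the finished enzyme. They were low, with a summed 50.7 ± 2.08 CPM in Bmi1-deleted and 53.8 ± 5.90 CPM in control libraries, with a median log2 change of -0.18. Ndufaf5, which modifies a complex I subunit during assembly, had 3.20, 4.67, 0.89 and 3.29 CPM in the Bmi1-deleted libraries, against 3.72, 8.14, 5.35 and 4.07 CPM in the control libraries. Its log2 change of -0.82 had an SE of 0.53 and an adjusted p of 0.768, so a difference of that size was within the spread. Ndufaf4, the member of this group with the highest CPM, averaged 16.2 ± 2.19 CPM in Bmi1-deleted and 15.6 ± 4.73 CPM in control libraries.

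Complex II, which is also succinate dehydrogenase of the citric acid cycle, has 4 subunits, with a summed 203 ± 7.76 CPM in Bmi1-deleted and 211 ± 21.5 CPM in control libraries. The flavoprotein Sdha had 134, 141, 140 and 126 CPM in the Bmi1-deleted libraries, against 145, 158, 136 and 152 CPM in the control libraries. The iron-sulfur subunit Sdhb had 34.9, 28.7, 30.8 and 33.8 CPM in the Bmi1-deleted libraries, against 31.1, 25.0, 19.0 and 26.5 CPM in the control libraries. Sdha had a log2 change of -0.13 (SE 0.11) and Sdhb one of 0.33 (SE 0.18; adjusted p = 0.700), and the groups overlapped for both. The membrane anchors Sdhc and Sdhd had log2 changes of 0.08 and -0.32.

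The 9 nuclear members of complex III had a median log2 change of -0.04. Uqcrq, a small subunit in contact with cytochrome b, had 22.0, 24.9, 15.9 and 13.6 CPM in the Bmi1-deleted libraries, against 31.9, 24.5, 22.3 and 30.1 CPM in the control libraries (log2 change -0.51, SE 0.23; adjusted p = 0.582). Uqcr10, another small subunit, had 6.07, 2.78, 5.67 and 4.88 CPM in the Bmi1-deleted libraries, against 7.23, 8.34, 6.95 and 7.58 CPM in the control libraries (log2 change -0.63, SE 0.36; adjusted p = 0.719). Only Uqcr10 of the 2 had groups that did not overlap. The core protein Uqcrc1, the member of complex III with the highest nuclear CPM, averaged 69.6 ± 11.4 CPM in Bmi1-deleted and 68.1 ± 10.5 CPM in control libraries. The Rieske iron-sulfur protein Uqcrfs1 had a log2 change of 0.27 (SE 0.21), and cytochrome c1, encoded by Cyc1, one of -0.37 (SE 0.18; adjusted p = 0.639).

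Complex IV had 17 nuclear members, of which 13 passed the filter on low counts. Several of its subunits exist as isoforms encoded by separate genes, of which one is broadly used and others are known from muscle, testis or lung. Cox4i1, the broad isoform of subunit 4, had 66.0, 65.7, 64.7 and 65.8 CPM in the Bmi1-deleted libraries, against 83.3, 73.6, 74.6 and 77.6 CPM in the control libraries. The Bmi1-deleted values had an SD of 0.555 CPM and all lay below the control values, and the log2 change was -0.24 (SE 0.11; adjusted p = 0.618). Its transcript shares 154 bases with that of its neighbour Emc8. The libraries were stranded, and the strand of that shared stretch was not recorded. Whether the counts of Cox4i1 hold some of those of Emc8 was not tested. The hypoxia- and lung-associated isoform Cox4i2 had 15 counts in all, 0.552, 0.994, 0 and 0 CPM in the Bmi1-deleted libraries and 0 CPM in each control library, where 3 counts would have been 0.309 to 0.339 CPM.

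The other broad isoforms stood above their tissue isoforms in both groups. Cox6a1 averaged 27.6 ± 2.50 CPM in Bmi1-deleted and 23.7 ± 4.82 CPM in control libraries, while its muscle isoform Cox6a2 had 0 counts. Cox6b1 averaged 19.6 ± 2.18 CPM in Bmi1-deleted and 19.3 ± 5.93 CPM in control libraries, and the testis isoform Cox6b2 had 27 counts in all. None of these differences passed the test. Cox7a2 averaged 10.3 ± 2.07 CPM in Bmi1-deleted and 12.3 ± 1.88 CPM in control libraries, and the muscle isoform Cox7a1 had 27 counts in all. Cox8a averaged 32.7 ± 4.72 CPM in Bmi1-deleted and 26.7 ± 6.43 CPM in control libraries, and Cox8b and Cox8c had 0 counts. Skeletal muscle markers summed to 19.5 to 48.5 CPM in Bmi1-deleted and 25.3 to 30.2 CPM in control libraries. Ndufa4, named for complex I but a subunit of complex IV, averaged 9.31 ± 3.96 CPM in Bmi1-deleted and 8.16 ± 2.46 CPM in control libraries, and its hypoxia-associated paralog Ndufa4l2 1.75 ± 0.725 CPM in Bmi1-deleted and 1.35 ± 0.773 CPM in control libraries. The sum of the complex was 357 CPM in each group, with an SD of 20.1 in Bmi1-deleted and 45.4 in control libraries.

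The 17 nuclear members of complex V had a median log2 change of -0.11, with 6 positive and 11 negative. Atp5a1, the alpha subunit of the catalytic head, had 326, 334, 329 and 321 CPM in the Bmi1-deleted libraries, against 289, 342, 353 and 483 CPM in the control libraries. The beta subunit Atp5b averaged 275 ± 14.5 CPM in Bmi1-deleted and 286 ± 51.0 CPM in control libraries. Control 4 was the highest library for both, and the Bmi1-deleted libraries agreed among themselves more closely than the control libraries did. Atp5k, which encodes the small membrane subunit e, had the largest positive log2 change of complex V, 0.42 (SE 0.32; adjusted p = 0.819). The ring subunit c is encoded by Atp5g1, Atp5g2 and Atp5g3, of which the first and second share stretches with pseudogenes that held 12.8% and 36.5% as many counts as the gene.

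**Figure D4:**
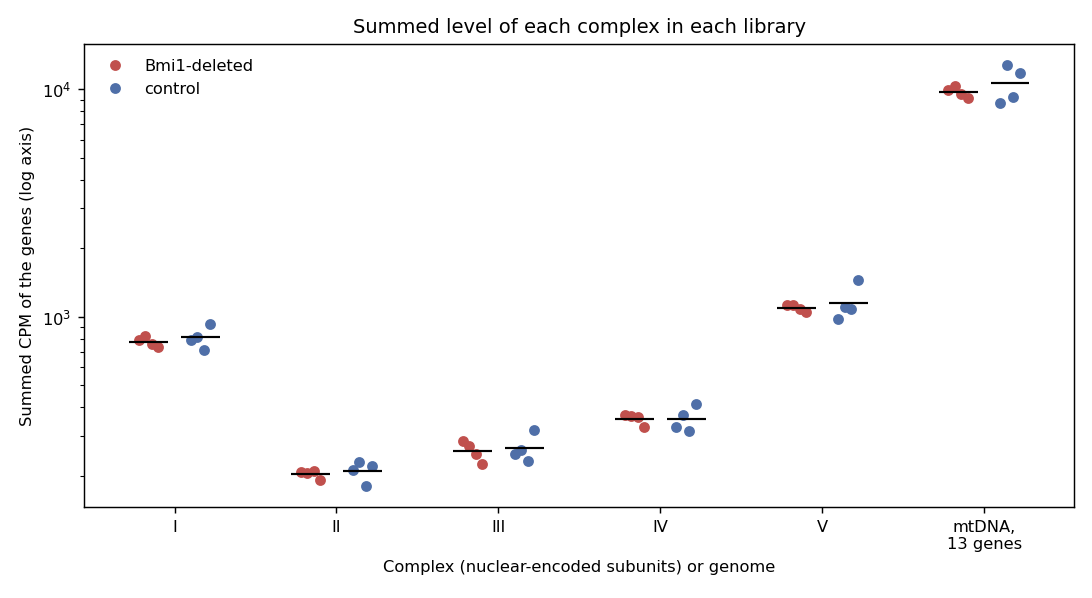
Points are the summed CPM, on a log axis, of the nuclear subunits of each complex and of the 13 mitochondrial genes with nuclear copies added, for the 4 Bmi1-deleted (red) and 4 control (blue) libraries, with black lines at the group means. The groups overlap in each column, and for the mitochondrial genes the means were 9721 CPM in Bmi1-deleted and 10608 CPM in control libraries.

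Levels were compared between genes per length, as TPM, which divides by transcript length, rescaled over protein-coding genes and averaged over the 8 libraries. The 12 highest members were all mitochondrially encoded, from 5369 TPM for mt-Atp6, 4306 TPM for mt-Co1 and 3987 TPM for mt-Cytb down to 799 TPM for mt-Nd6, the only one of the 13 on the minus strand. The thirteenth, mt-Nd3 at 402 TPM, stood between the nuclear genes Atp5b at 500 TPM and Atp5h at 400 TPM. The highest nuclear member was Atp5mpl, a small ATP synthase subunit, at 608 TPM. Its short transcript makes its level depend on the effective length used.

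The nuclear subunits of the complexes differed in level. The median member level was 131 TPM for complex III, 112 TPM for complex V, 93.7 TPM for complex IV, 71.4 TPM for complex I and 47.7 TPM for complex II, against 14.8 TPM for the assembly factors. The complex IV median includes the untested isoform genes Cox4i2, Cox7b2, Cox6b2 and Cox7a1, at 0.803 to 3.67 TPM. Its place in this order depends on counting them. Within complex I, Ndufb3 had 20.5 TPM, Ndufb10 167 TPM and Ndufa6 171 TPM, so subunits that enter the enzyme in equal number differed widely at the level of RNA. In complex II, Sdha at 281 TPM stood above Sdhb at 67.8 TPM, Sdhc at 27.6 TPM and Sdhd at 26.7 TPM. The lowest tested nuclear members were Ndufaf1 at 6.55 TPM, Atp5s at 7.08 TPM and Ndufa4l2 at 8.65 TPM. Summed counts of the 13 mitochondrial genes were 3.50, 3.63, 3.52 and 3.54 times those of the nuclear members in the Bmi1-deleted libraries, against 3.32, 4.51, 3.58 and 3.47 times in the control libraries.

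Promoters of the nuclear members are known to carry sites of the factors NRF1 and GABP, an ETS factor. In RefSeq promoter sequences (GRCm38.p6, 250 bases before to 50 after the start), 75 of the 91 nuclear members were matched. A gene was counted where any of its promoters held the motif. The NRF1 motif GCGCATGCG was found on either strand in 10 of them, 13.3%. That compares with 2.61% of all 17491 genes with a promoter and 4.02% of the 10244 tested genes with one. The ETS motif CCGGAAG was found in 18, 24.0%, against 12.9% of all these genes and 19.3% of the tested ones. The YY1 motif AAGATGGCG was found in 8, 10.7%, against 2.14% of all these genes and 3.45% of the tested ones. The ERR motif TCAAGGTCA was found in 2, 2.67%, against 0.377% of all these genes and 0.312% of the tested ones. A match is a description of these letters, and no binding was measured.

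The promoters of 2 members are printed in the direction of the gene with the motif matches in capitals. Cox6a1 (chr5:115348909-115349208, minus strand) is shown as a member with both kinds of motif. Its NRF1 match is a palindrome that reads on both strands and so counts once for each, and its ETS match is on the reverse strand. Ndufs8 (chr19:3912725-3913024, minus strand) is shown as the member with the lowest adjusted p, and has an ETS match on the reverse strand and no NRF1 match.
Cox6a1: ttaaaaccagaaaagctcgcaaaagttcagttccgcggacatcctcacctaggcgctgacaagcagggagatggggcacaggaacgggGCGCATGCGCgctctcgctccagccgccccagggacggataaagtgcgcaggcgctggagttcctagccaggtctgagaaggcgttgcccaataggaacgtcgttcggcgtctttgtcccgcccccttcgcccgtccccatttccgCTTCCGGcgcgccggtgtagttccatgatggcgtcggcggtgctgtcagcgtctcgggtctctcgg
Ndufs8: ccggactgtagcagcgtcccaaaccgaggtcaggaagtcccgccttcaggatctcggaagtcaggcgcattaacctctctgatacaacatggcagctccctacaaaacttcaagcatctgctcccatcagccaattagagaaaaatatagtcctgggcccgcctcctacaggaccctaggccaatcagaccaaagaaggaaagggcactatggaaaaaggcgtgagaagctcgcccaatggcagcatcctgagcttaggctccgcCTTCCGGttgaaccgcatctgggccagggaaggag
Cox6a1 had a log2 change of 0.22 (SE 0.19) and Ndufs8 one of -0.56 (SE 0.21), neither past the adjusted threshold.

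Genes outside the complexes were taken from fixed lists. Of 24 tested regulators of mitochondrial biogenesis and transcription, 0 were called (0.0937% of all genes were), with a median log2 change of -0.03. Groups did not overlap for 1 higher and 1 lower gene of the 24 (5.18% of all genes did not overlap). Ppargc1b, a coactivator of mitochondrial genes, averaged 11.9 ± 2.22 CPM in Bmi1-deleted and 20.0 ± 4.08 CPM in control libraries without overlap (log2 change -0.75, SE 0.23; adjusted p = 0.370). Polrmt averaged 26.2 ± 2.28 CPM in Bmi1-deleted and 17.9 ± 3.33 CPM in control libraries, also without overlap (log2 change 0.55, SE 0.20; adjusted p = 0.458). Ppargc1a, the DNA-packaging transcription factor Tfam and Nrf1 had log2 changes of 0.19 (SE 0.34), -0.06 (SE 0.20) and -0.24 (SE 0.16).

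The edgeR fits without and with the replicate block called 0.0937% and 2.41% of all genes. Neither fit called a gene among 42 tested assembly factors with other names, 14 citric acid cycle genes and 13 genes of pyruvate entry. The same held for 17 genes of electron carriers and coenzyme Q synthesis, 20 of glycolysis and 78 of the mitochondrial ribosome. The median log2 changes of these lists, in that order, were -0.03, -0.10, 0.07, -0.01, -0.01 and -0.01. Cytochrome c, encoded by Cycs, averaged 27.6 ± 6.50 CPM in Bmi1-deleted and 26.5 ± 4.78 CPM in control libraries. Cox10, which makes the heme A precursor for complex IV, averaged 8.86 ± 1.06 CPM in Bmi1-deleted and 14.4 ± 2.82 CPM in control libraries, without overlap (log2 change -0.70, SE 0.26; adjusted p = 0.472). It is 1 of 2 lower assembly factors without overlap. In the other lists, 1 higher citric acid cycle gene, 1 lower glycolysis gene, and 1 higher and 3 lower mitochondrial ribosome genes did not overlap. Of all genes, 5.18% did not overlap.

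Other cell types moved with the groups and with the replicate numbers. A fibroblast score, the mean log2 CPM of fibroblast markers, was 6.80, 6.21, 5.58 and 4.98 in the Bmi1-deleted libraries, against 5.53, 5.36, 5.06 and 5.11 in the control libraries. With that score as a covariate, the median log2 change was -0.14 for the nuclear members and -0.28 for the tested mitochondrial rows, and 0 members were called, with 11 of 99 at an unadjusted p under 0.05. With score and replicate block together the medians were -0.31 and -0.43. In that edgeR fit 0 members were called, with 17 of 99 at an unadjusted p under 0.05. The lowest adjusted p there was 0.0661 for Atp5e, which encodes the epsilon subunit of the ATP synthase. That fit leaves few residual degrees of freedom, and the score itself moved with group and replicate number. The share of all genes at that unadjusted p was not counted in either fit with the score, so 11 and 17 of 99 have no background beside them. Among the markers, 0 were called in the fit without score or block, which called 0.0937% of all genes. The fit with the replicate block alone called 2.41% of all genes. In it, 6 of 12 tested fibroblast, 5 of 12 Schwann cell and 2 of 12 keratinocyte markers rose. Of 12 melanocyte markers, 8 fell. No skeletal muscle, adipocyte, immune, or endothelial and mural marker was called in it. On the deposited log2(TPM + 1) values the medians were -0.27 for nuclear and -0.41 for mitochondrial members, on a scale where the median of all genes was itself -0.18.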

How the data were processed

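Total RNA of sorted cells was made into stranded libraries with depletion of ribosomal fragments, per the labels' protocols. The authors deposited a table of estimated counts per gene, given as whole numbers, and a table of log2(TPM + 1) values; Salmon 1.2.1 and mm10 are named in the submitters' processing notes. Gene names and overlaps came from GENCODE M21. Counts were tested in edgeR 4.0.16 (R 4.3.3) with filterByExpr, TMM scaling and robust quasi-likelihood fits of 4 Bmi1-deleted against 4 control libraries, with Benjamini-Hochberg adjustment over all 16011 genes and a threshold of 0.05. DESeq2 1.42.0, limma 3.58.1 on the log2 values, other scalings and filters, a replicate block, fits within replicates 1 and 2 or 3 and 4, and leaving out each library were alternatives. Nuclear copies were found with blastn 2.17.0 at 90% identity or more over at least 100 bases, and those at 99% or more were added to the gene. The edgeR fit was tested on simulated data.

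Libraries of one group differed from each other by more than sampling noise (chi-square per degree of freedom of 11.7 to 34.3). Libraries with the same replicate number deviated together (correlations of 0.140 to 0.224), which the rule used here took as a reason to fit the number as a block. The labels give no pairing, and different numbers within replicates 1 and 2, or within 3 and 4, correlated as highly, at a mean of 0.195. Across these sets the mean was -0.191, which largely follows from taking deviations from group means and is not a separate result. The values therefore show these sets of libraries and do not show pairs by number. Reads without molecular identifiers are not independent molecules, and a floor covers counting error only.

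Members and lists were chosen with earlier results of these data known. The genes named were Bmi1, the mitochondrial genes, the nuclear member of each complex with the highest CPM and with the smallest p, the complex IV isoforms, and members whose groups did not overlap. One named gene is not reported here. Other genes in the text were chosen after their values were seen. Genes under the low-count filter were given as counts, with 3 counts taken as the floor.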

Additional observations from a re-analysis of the deposited data

Results flagged for a closer look

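Groups of 4 libraries were examined for named members and for sums of members, not for every member. Of these 102 groups, 8 held a library farther from the rest than Dixon's 95% value allows. Chance alone flags about 1 in 20 groups. The mitochondrial rows account for 3 of the 8. On its own row mt-Co2 had 29.3 CPM in Bmi1-deleted 4 and 0 CPM in the other Bmi1-deleted libraries. Where the other libraries of a group have 0 CPM, any value above 0 is flagged, here and for Cox6b2 in Bmi1-deleted libraries. On its own row mt-Co3 had 311 CPM in Bmi1-deleted 1 against at most 45.3 CPM in the other Bmi1-deleted libraries, and 204 CPM in control 2 against at most 35.2 CPM in the other control libraries. With the counts of the nuclear copies added, mt-Co3 had 359, 390, 390 and 331 CPM in the Bmi1-deleted libraries and 292, 528, 368 and 456 CPM in the control libraries.

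Ndufs8, lower in the Bmi1-deleted libraries without overlap, had 16.7 CPM in control 3 against 18.6 to 18.8 CPM in the other control libraries. Cox6b2, a low isoform gene of complex IV, had 0.662 CPM in Bmi1-deleted 1 and 0 CPM in the other Bmi1-deleted libraries, and 1.82 CPM in control 3 against at most 0.226 CPM in the other control libraries. Cox7a2 had 7.26 CPM in Bmi1-deleted 4 against 11.0 to 11.6 CPM in the other Bmi1-deleted libraries. The 8 complex I assembly factors summed to 47.6 CPM in Bmi1-deleted 4 against 51.5 to 52.0 CPM in the other Bmi1-deleted libraries.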

How the results depend on the processing

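Across 25 alternatives, 21 planned and 4 added after seeing the data, 0 members were called in each, and the lowest adjusted p of a member was 0.0661. The named genes gave 757 gene and alternative values, of which 0 were called and 65 had the other sign. The counts over all genes (14 higher and 1 lower in Bmi1-deleted libraries) and several changes moved. On its own row mt-Co3 ran from -6.23 to 2.07 on the log2 scale and mt-Atp6 from -0.28 to 0.64, and the median of the mitochondrial genes from -0.43 to -0.05. With the replicate block, which changed no member's call, 273 genes were higher and 113 lower, with nuclear copies added as well 285 and 112, and with the block and the fibroblast score 239 and 66. DESeq2's test gave 107 and 53, no filter 259 and 121, replicates 1 and 2 alone 83 and 73, log2(TPM + 1) and log2(TPM + 0.1) each 1 and 2, and log2(TPM + 1) with no filter 0 and 0. Genes called lower numbered 3 with DESeq2 size factors, 3 with upper quartile scaling, 2 with a filter of 10 CPM and 6 in replicates 3 and 4 alone. Leaving out each library in turn gave 8 (without control 2) to 40 (without control 1) genes higher and 0 to 5 lower, and without control 2 with copies added 8 and 0. The nuclear median of -0.05 changed sign without control 4 (0.05) and in replicates 1 and 2 alone (0.08), and leaving out each library in turn gave -0.11 (without control 3) to 0.05. It was -0.22 in replicates 3 and 4 alone, -0.27 on log2(TPM + 1), -0.30 with a pseudocount of 0.1, -0.27 on log2(TPM + 1) with no filter and -0.31 with the fibroblast score and the replicate block. The cause of these shifts was not tested. Depth limits the 4 untested nuclear members, at 15 to 27 counts in all, and the 20 tested ones under 10 CPM had the largest median SE, 0.45.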
